A study of Brassica oleracea with 4 samples.

Results

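The genes described here are 6 broccoli genes grouped by their annotation to families of wall loosening and remodelling: 3 xyloglucan endotransglucosylase/hydrolase (XTH) genes, 1 expansin gene and 2 genes whose annotation names a superfamily of inhibitors of plant invertases and pectin methylesterases. They were chosen by identifier from a deposited table of 135 genes, and all 6 were found in it. RNA had been sequenced from hypocotyls, the embryonic stems, of Brassica oleracea (broccoli) microgreens at 10 days of age. One group had been sprayed every day with 10 mmol/L calcium chloride (CaCl2) and the other with water, and the labels give 2 libraries per group. Both groups shared the growth regime, which was 4 days in the dark followed by 12 h of light and 12 h of dark at 25 °C. The light intensity, also shared, was 42 µmol per second and square metre. A cultivar is not named in the labels, and they do not say whether the libraries of a group came from separate trays or pools of seedlings. The series title links the comparison to the expansion of hypocotyl cells.

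A growing plant cell is held by a wall in which cellulose microfibrils lie in a matrix of xyloglucan and pectin. XTH enzymes cut xyloglucan chains and rejoin the ends to other chains, which can let the wall yield or can fix new chains in place. Expansins loosen the contacts between cellulose and matrix polymers without cutting them, and are known for their part in acid-induced extension of hypocotyls. Pectin methylesterases take methyl groups off pectin, which exposes acidic groups that calcium ions can bridge into a stiffer gel or that wall hydrolases can attack, and pectin methylesterase inhibitors block these enzymes.

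The table gives 1 RPKM per gene and group, which is a read count scaled to gene length and to the total of mapped reads, so levels can be compared between genes. It holds no value of a single library. The values below therefore carry no replicate error, no test of a difference was made, and the read depth behind them is unknown. Every gene of the table is at least 2-fold apart between the groups, so the table is a selection and a 2-fold difference of a wall gene is no result in itself. The smallest difference in it is 21.5 RPKM, so genes with a low level in one group are present with large folds only. In bulk RNA a smaller number of cells of a type and less RNA per cell cannot be told apart. The hypocotyl label was not checked directly, since no hypocotyl marker list was set up. Genes on the marker lists of other organs had the following values. All 12 genes of the cotyledon and leaf list, which green hypocotyl cells can also express, were lower with calcium, with a summed level of 7147 RPKM in the calcium group and 15889 RPKM in the water group. The 1 root marker, RGF9, was also lower, at 16.2 RPKM with calcium and 54.3 RPKM with water. The seed list matched M17, a late embryogenesis gene described with the wall lists, and Bo9g120390, at 376 RPKM with calcium and 142 RPKM with water. This second gene was matched through a superfamily name that also covers lipid transfer proteins, so it does not mark seed tissue. A difference in tissue content and a difference in expression within the hypocotyl cannot be told apart for these lists, and their part in the wall gene values was not tested.

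With calcium, 5 of the 6 wall genes had the higher level and 1 the lower. By the make-up of the table, 100% of its genes passed the 2-fold limit, 52.6% on the higher side and 47.4% on the lower side. All 3 XTH genes and the expansin gene were among the 5. The 2 pectin-related genes lay on opposite sides. The median log2 ratio of calcium over water was 1.38 for the 6 genes and 1.04 for all 135. Both medians run over genes of opposite direction, and that of the table falls at the edge of the gap that the 2-fold limit leaves, so neither serves as a measure to compare with. At a 3-fold limit 1 of the 6 genes, the XTH17 homologue, was still counted, while 50.4% of the table passed, 25.2% in each direction. No gene of the 6 changed direction under the scalings tried, although XTH15 came to a ratio of 1 (log2 of 0) when the table's median was set to no difference. The order of the 6 genes by RPKM was the same in both groups: Bo9g014930 was highest, followed by XTH15, the XTH18 homologue, EXPA10, Bo3g037670 and the XTH17 homologue.

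**Figure D1:**
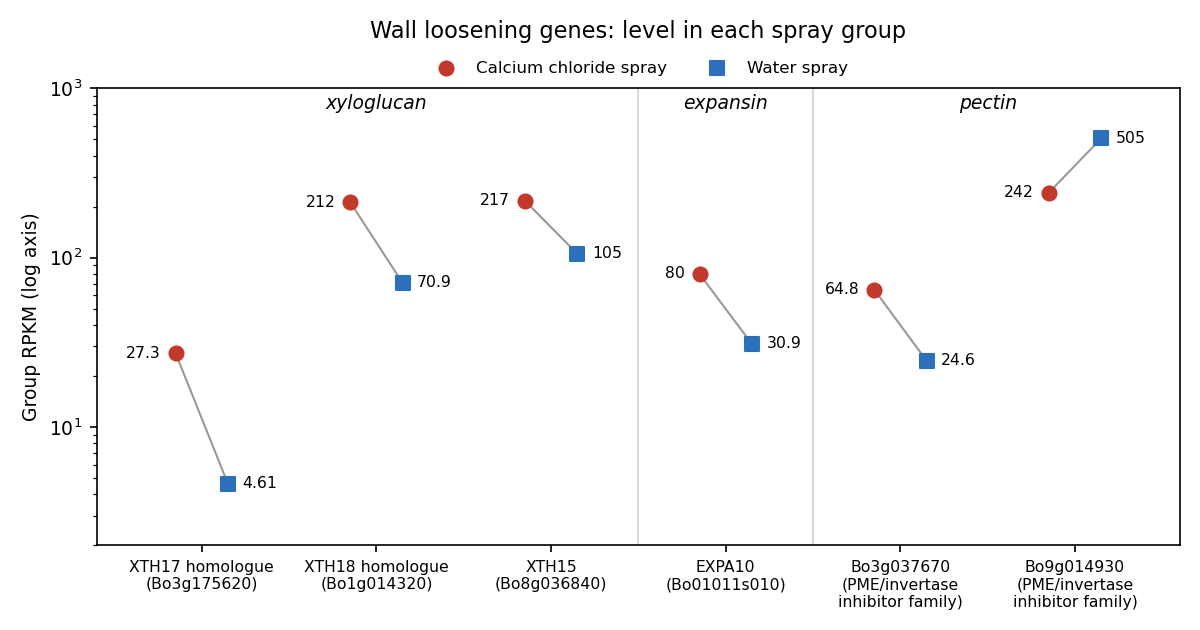
Group RPKM on a log axis for the 6 wall genes, set out as xyloglucan, expansin and pectin-related genes. Red circles are the calcium chloride group and blue squares the water group. Each point is the single deposited value of its group, so there are no error bars. The calcium value is above the water value in 5 genes, and below it in Bo9g014930, at 242 RPKM with calcium and 505 RPKM with water.

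Among the xyloglucan genes, the homologue of XTH17 (Bo3g175620, matched to Arabidopsis AT1G65310) was at 27.3 RPKM in the calcium group and 4.61 RPKM in the water group. This is a 5.91-fold higher level, the largest ratio of the 6 genes. Its difference of 22.6 RPKM lies just above the smallest in the table. At its level with water, a fold under 5.66 would put it below that smallest difference. The rank of this ratio therefore depends on which genes the table holds, and how far was not tested. The XTH17 homologue was also the least abundant of the 6 genes in both groups, ranking 106 of 135 by level with calcium and 129 of 135 with water. Because the water value is low, the ratio depends on what is added to both values, and with 5 RPKM added it was 3.36-fold.

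The homologue of XTH18 (Bo1g014320, matched to AT4G30280) was at 212 RPKM with calcium and 70.9 RPKM with water, or 2.99-fold higher. In Arabidopsis, XTH17 and XTH18 are close relatives within the XTH family, so reads of such genes could be shared in mapping. The labels and headers do not tell how the authors assigned such reads, and the separate values of the 2 homologues are uncertain to that extent.

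XTH15 (Bo8g036840, matched to AT4G14130) was at 217 RPKM with calcium and 105 RPKM with water. Its 2.06-fold difference was the smallest of the 6 and ranked 68 of the 71 higher genes, close to the limit below which the table holds no gene. It was nevertheless the most abundant XTH gene in both groups.

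The spacing of the 3 XTH genes by RPKM differed between the groups. XTH15 stood at 1.02 times the level of the XTH18 homologue with calcium and at 1.49 times with water. With no spread between libraries, it cannot be said whether these neighbours differ. XTH15 was 7.95 times as abundant as the XTH17 homologue with calcium, and 22.9 times with water.

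Summed over the 3 genes, XTH transcript stood at 456 RPKM with calcium and 181 RPKM with water, a 2.52-fold higher level. Of the 275 RPKM by which the sum was higher, the XTH18 homologue made up 51.3%, XTH15 40.4% and the XTH17 homologue 8.23%. The gene with the largest fold thus contributed least to the amount of XTH transcript. The share of XTH15 in the summed level was 47.5% with calcium and 58.3% with water, while that of the XTH18 homologue was 46.5% with calcium and 39.2% with water. The XTH17 homologue held 5.98% of the sum with calcium and 2.55% with water.

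EXPA10 (Bo01011s010, matched to AT1G26770), an alpha-expansin, was the only gene of the table annotated as an expansin. It was at 80.0 RPKM in the calcium group and 30.9 RPKM in the water group, or 2.59-fold higher. Its level was near the middle of the table with calcium, at rank 57 of 135, and lower down with water, at rank 98. The summed XTH level was 5.70 times that of EXPA10 with calcium and 5.85 times with water, and a spread between libraries that these could be set against is lacking.

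The 2 pectin-related genes carry the same superfamily annotation, which covers inhibitors and also enzymes that have an inhibitor-like region in front of the catalytic part. Bo3g037670 matches AT2G45220, which in Arabidopsis is known as a pectin methylesterase. Bo9g014930 matches a different gene, AT5G62360, and the annotation alone does not say whether it inhibits invertases or pectin methylesterases. Bo3g037670 was at 64.8 RPKM with calcium and 24.6 RPKM with water, or 2.63-fold higher. Bo9g014930 was at 242 RPKM with calcium and 505 RPKM with water, or 2.09-fold lower.

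Bo9g014930 was the most abundant of the 6 wall genes in both groups, and ranked 29 of the 135 genes with calcium and 13 with water. The level of Bo9g014930 was 3.73 times that of Bo3g037670 with calcium and 20.5 times with water. Bo3g037670 made up 21.1% of the summed level of the pair with calcium and 4.65% with water. That sum was 307 RPKM with calcium and 530.0 RPKM with water. The difference of -264 RPKM in Bo9g014930 thus outweighed that of 40.2 RPKM in Bo3g037670. The sum adds a pectin methylesterase match to a possible inhibitor, so it does not measure action on pectin. The median log2 ratio of the pair, 0.17, joins values of opposite sign and describes neither gene.

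**Figure D2:**
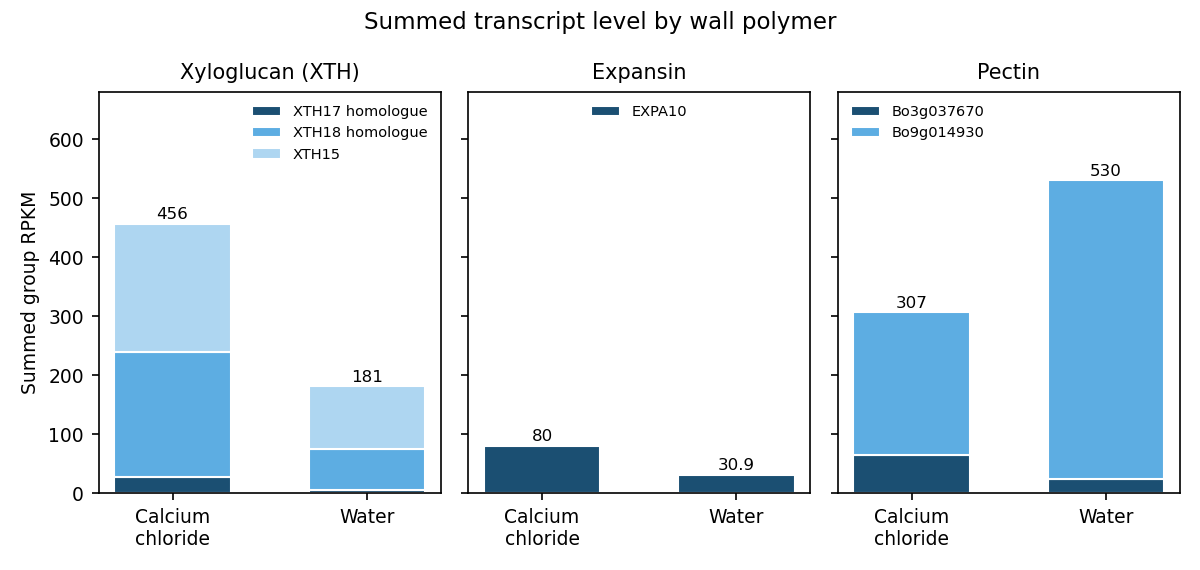
Stacked bars of summed group RPKM for the XTH, expansin and pectin-related genes, calcium chloride on the left and water on the right of each panel. Each gene is a segment and the sum is printed above. The pectin-related sum joins a pectin methylesterase match and a gene whose annotation does not settle its function, so it does not measure action on pectin. The XTH sum is 456 RPKM with calcium and 181 RPKM with water, EXPA10 is at 80.0 RPKM with calcium and 30.9 RPKM with water, and the pectin-related pair is at 307 RPKM with calcium and 530.0 RPKM with water.

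Over the 6 genes together, the summed difference of the 5 higher genes outweighed the opposite difference of Bo9g014930. The 5 higher genes together stood at 601 RPKM with calcium and 236 RPKM with water, a sum 365 RPKM higher. Bo9g014930 alone differed by -264 RPKM. The sum of all 6 was therefore 843 RPKM with calcium and 742 RPKM with water, 1.14 times as high. It adds genes of different function, 1 of them a possible inhibitor, so it is not an amount of wall loosening transcript. Over all 135 genes the sum with calcium was 0.885 times that with water. Levels among the 6 genes were also closer together with calcium, where the highest was 8.87 times the lowest, than with water, where it was 110 times the lowest. Both figures set Bo9g014930 against the XTH17 homologue. At the water level of the XTH17 homologue, a fold under 5.66 would fall below the smallest difference in the table. This contrast therefore depends on the selection, and how far was not tested. Of the 6, 5 lay above the median level of the table with calcium (62.9 RPKM) and 3 with water (61.3 RPKM).

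**Figure D3:**
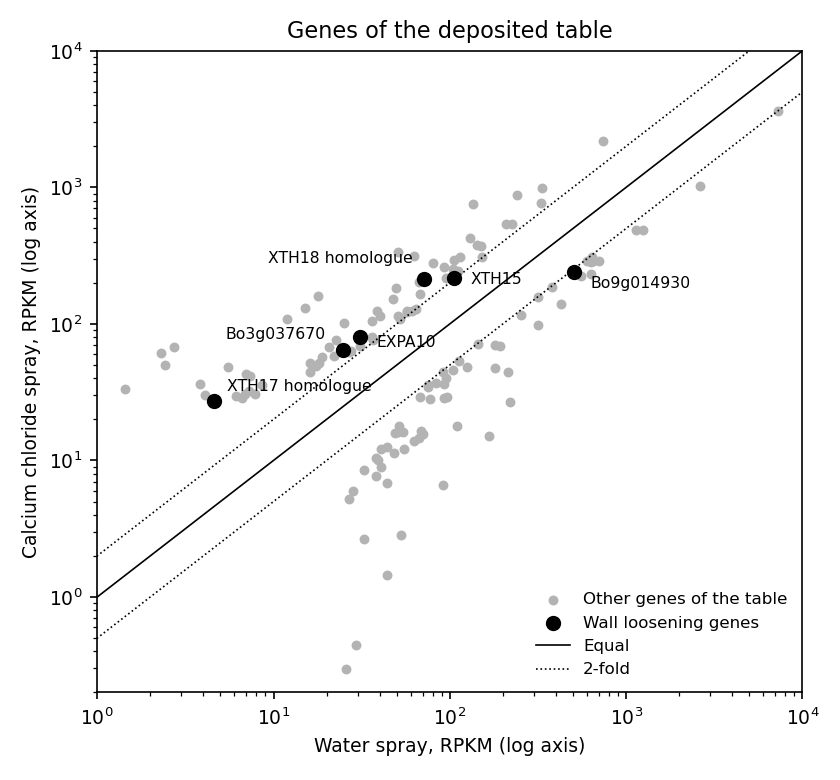
Water RPKM on the x axis against calcium RPKM on the y axis, both log axes, for the 135 genes of the table; black points are the 6 wall genes, grey points the others, the solid line marks equal values and the dotted lines a 2-fold difference. The XTH17 homologue lies at 4.61 RPKM with water, left of the other 5 wall genes, and XTH15 and Bo9g014930 lie just outside the dotted lines, at 2.06-fold higher and 2.09-fold lower.

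The authors' deposited table also gives an adjusted p-value per gene, from a test that the headers do not name. In the authors' deposited table this value was listed as 0 for the XTH18 homologue and for Bo9g014930, as for 41 of the 135 genes. In the authors' deposited table it was 8.00e-08 for XTH15, 0.000544 for EXPA10, 0.00339 for Bo3g037670 and 0.0104 for the XTH17 homologue. The gene with the largest fold difference thus had the highest adjusted p-value of the 6 in the authors' deposited table, at rank 110 of 135 from the lowest. An adjusted p under 0.001 was listed in the authors' deposited table for 4 of the 6 wall genes and for 68.9% of all its genes. The authors' deposited table placed the 5 higher wall genes in its cluster 1 and Bo9g014930 in its cluster 3. Other genes on the wall, growth and marker lists were in cluster 1 if higher with calcium and in cluster 3 if lower. The exception was the lower peroxidase gene Bo2g166040, in cluster 2. The share of the whole table in each cluster was not counted, so this placing is not read as a grouping apart from direction.

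Beyond the 6, annotation words for wall and growth genes matched 8 other genes of the table, of which 4 were higher with calcium and 4 lower. No other XTH, expansin or pectin gene was matched, and none of the 6 shares its Arabidopsis match with another gene of the table. The words could not match the 27 genes of the table without annotation, and only 108 genes have an Arabidopsis match. Further members of these families may therefore be among the genes without annotation. Genes outside the table were not analysed here, so further members of these families may have had any level. The list for cellulose and other wall polysaccharides matched 4 genes by words such as glycosyl hydrolase, which do not name a substrate, and 2 of them were higher and 2 lower. The beta-1,3-glucanase PR-2 (Bo4g111320), which cleaves callose and fungal glucan, was at 115 RPKM with calcium and 40.1 RPKM with water (2.87-fold higher). BGLU30 (Bo8g094910), a glycosyl hydrolase, was at 308 RPKM with calcium and 152 RPKM with water (2.02-fold higher). The glycosyl hydrolase Bo1g054940 was 4.59-fold lower, at 14.6 RPKM with calcium and 67.0 RPKM with water. The beta glucosidase BGLU18 (Bo6g028090) was 4.98-fold lower, at 7.67 RPKM with calcium and 38.2 RPKM with water. In Arabidopsis BGLU18 is known for releasing abscisic acid from its glucose ester and not for work on the wall.

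The other wall and growth lists had 1 gene each. The peroxidase Bo2g166040, of a family that can cross-link wall polymers, was at 2.65 RPKM with calcium and 32.7 RPKM with water (12.4-fold lower). The tonoplast intrinsic protein TIP2;3 gene (Bo7g077600), which encodes a vacuolar channel, was at 6.80 RPKM with calcium and 43.9 RPKM with water (6.45-fold lower). The glycine-rich M17 gene (Bo4g190800), also annotated as a late embryogenesis protein and matched by the seed list, was 20.7-fold higher, at 50.1 RPKM with calcium and 2.42 RPKM with water. The GH3 family gene Bo9g167830, matched to AT5G13320, was 26.6-fold higher, at 61.4 RPKM with calcium and 2.30 RPKM with water. It was listed through the word auxin in its family annotation, which does not show that this gene acts on auxin or growth. Each of these 4 genes had a low level in one group, where the table holds large folds only. The size of their folds is therefore not set against that of the 6 wall genes.

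**Figure D4:**
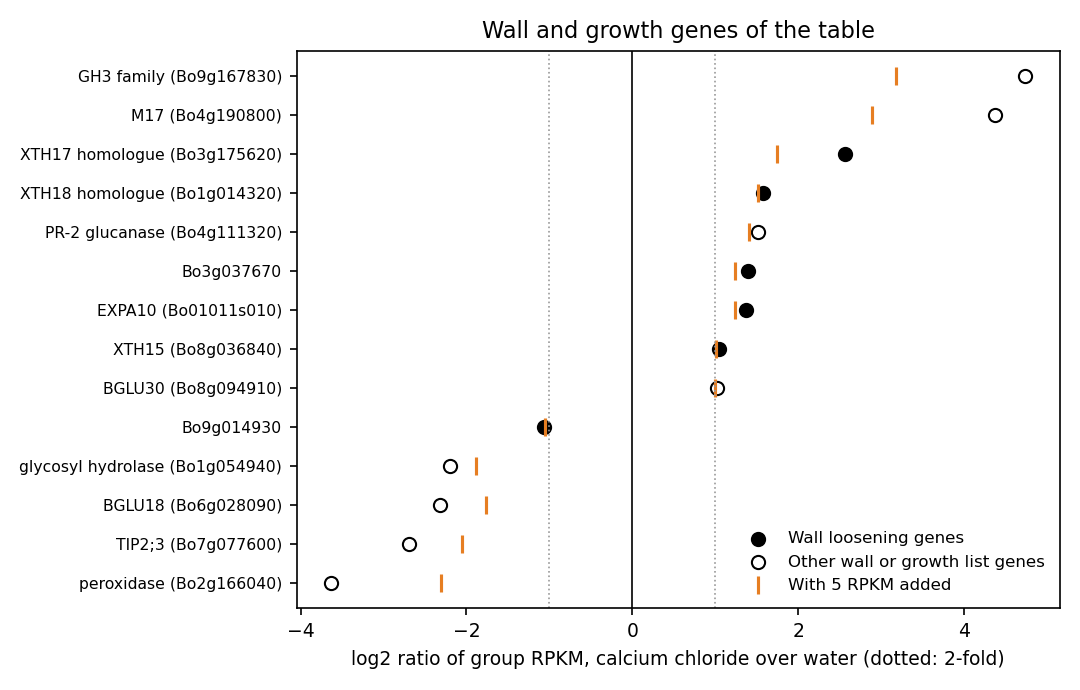
The log2 ratio of group RPKM, calcium chloride over water, on the x axis for the 14 genes of the wall and growth lists, sorted; filled points are the 6 wall genes, open points the 8 others, orange ticks the ratio with 5 RPKM added, and dotted lines mark 2-fold. The wall genes other than the XTH17 homologue at 2.56 lie between 1.04 and 1.58 or, for Bo9g014930, at -1.06, while M17 and the GH3 family gene lie beyond 4.

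For each wall gene, the gene of the table with the most similar pair of values was found as the nearest by distance over log2 water RPKM and log2 calcium RPKM, which are only 2 values. The nearest to the XTH18 homologue was GLIP3 (Bo3g184360), a GDSL-motif lipase, at 204 RPKM with calcium and 66.6 RPKM with water, a distance of 0.11. The nearest to XTH15 was the glutathione S-transferase GSTF2 (Bo3g052490), at 215 RPKM with calcium and 95.4 RPKM with water (0.14). The nearest to Bo3g037670 was the EF-hand calcium-binding gene Bo00578s040, at 61.9 RPKM with calcium and 25.4 RPKM with water (0.081), the closest match of the 6. The nearest to Bo9g014930 was the glutathione S-transferase GSTF9 (Bo4g173610), at 224 RPKM with calcium and 552 RPKM with water (0.17). The XTH17 homologue and EXPA10 were nearest to genes without annotation, Bo8g095190 at a distance of 0.23 and Bo6g120960 also at 0.23. Nearness in 2 group values among 135 genes describes levels and says nothing of a shared function or control.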

How the data were processed

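RNA was sequenced from 10-day hypocotyls of 2 libraries per spray. Per the labels' protocols, libraries were made with an Illumina TruSeq RNA kit. CASAVA appears, with no version, in the submitters' processing notes. The aligner, genome build, annotation and the way libraries of a group were combined were not given in the sources used here. Per the file headers, the authors deposited an RPKM per gene for control and calcium, its log10, a signed fold change, an adjusted p-value and a cluster number. Control was read as the water group, since the labels have no other. The deposited log10 values and fold changes were checked against the RPKM columns. The fold change of log10 values, also in the table, was not used.

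Ratios are calcium over water of the group RPKM, with nothing added unless stated; the median, nearest-gene and scaling steps were tested on simulated data. The limma test planned for values per library could not be run. The 6 genes, the word lists and the rules for naming genes were chosen with earlier results of these data known. The text names the 6 genes, every gene on a wall or growth word list, and the nearest gene to each of the 6. RGF9 and Bo9g120390 were named from the marker lists. The RefSeq gene table at hand held none of the identifiers, so names come from the deposited annotation and no position or sequence is given. Python 3.11.15, NumPy 2.4.6, pandas 2.3.3 and matplotlib 3.10.9 were used.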

Additional observations from a re-analysis of the deposited data

How the results depend on the processing

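No paired analysis was possible because the table gives 1 value per group, and leaving out a replicate was not possible for the same reason. With 1 or 5 RPKM added, all 6 genes kept their direction and at least a 2-fold difference. A shift that brings the median log2 ratio of the table, 1.04, to 0 left 2 of the 6 genes at 2-fold (1 higher, 1 lower). XTH15 is the gene at that median and became 0 by construction, and the class medians became 0.54 for xyloglucan, 0.33 for the expansin and -0.87 for pectin. Quantile normalization left 5 genes, with XTH15 at a log2 ratio of 0.54. Both scalings rest on the deposited selection, in which every gene differs, so they do not normalize the libraries. The 3-fold limit left 1 higher gene and 0 lower genes. At least 25 RPKM in both groups left 3 higher genes, as did an adjusted p under 0.001 in the authors' deposited table. For the added RPKM, both scalings and the 25 RPKM limit, the share over all genes of the table was not counted. Those counts therefore do not show how the 6 genes compare with the rest of the table. The ratio of summed RPKM per class, a summary chosen after seeing the data, was 1.33 on the log2 scale for xyloglucan. For the pectin-related pair, whose sum does not measure action on pectin, it was -0.79, against a median of 0.17.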
